A study of Saccharomyces cerevisiae with 3 samples.

Results

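The 10 genes that encode the subunits found only in RNA polymerase III (Pol III) of budding yeast were followed on intergenic DNA microarrays. The rule took every array feature whose identifier carries the systematic name of 1 of the 10 open reading frames (ORFs). It found 10 features, 1 for each gene, among 6399 features of the array and 5806 that are named for ORFs, and all 10 had a value in every condition. A feature is a stretch of DNA beside the ORF whose name it carries, not the ORF itself.

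Each value compares DNA of crosslinked chromatin from which myc-tagged Maf1 had been removed with antibodies (labelled with Cy5) with DNA of the input chromatin (labelled with Cy3). The yeast carried Maf1-myc in all conditions and grew in YPD, a rich medium, to an optical density of 0.6. There were 3 conditions, namely no treatment and 30 or 120 min of rapamycin (0.2 ng/ul), which inhibits the TOR kinase. The labels do not describe the strain, the tagging construct or an untagged control. Each condition has 1 deposited column, the authors' average over 3 replicate arrays, so there is no spread between replicates, no p-value and no replicate check for any difference below. The number of arrays limits the precision.

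Pol III makes the transfer RNAs, the 5S ribosomal RNA and a few other small RNAs. Maf1 is its conserved repressor: when nutrients fail or TOR is inhibited, Maf1 loses phosphate groups, enters the nucleus and binds the polymerase itself. The genes of the Pol III subunits are protein genes, transcribed by RNA polymerase II. They thus differ from the tRNA genes, where Pol III and with it Maf1 can be crosslinked. The comparison made here asked whether the stretches beside them stood apart from other ORF-named features before or during rapamycin.

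The subunits fall into 4 assemblies. RPO31 (YOR116C, chromosome XV) and RET1 (YOR207C, chromosome XV) encode the large subunits that form the catalytic core. RPC82 (YPR190C, chromosome XVI), RPC34 (YNR003C, chromosome XIV) and RPC31 (YNL151C, chromosome XIV) encode a trimer needed for initiation at promoters. RPC53 (YDL150W, chromosome IV) and RPC37 (YKR025W, chromosome XI) encode partners that act with RPC11 (YDR045C, chromosome IV), the RNA cleavage subunit, in termination and reinitiation. RPC25 (YKL144C, chromosome XI) and RPC17 (YJL011C, chromosome X) encode the stalk, which takes part in initiation.

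All values are deposited scores minus the median score of their column, in score units. Neither the log base nor the direction of the ratio is stated in the labels, so a higher score is not read as more or less Maf1, and with the sign turned every higher value reads as lower. For scale, features named for tRNA genes had a median of 0.76 before treatment, 0.62 at 30 min and 1.46 at 120 min, over 245 measured features. A feature was called high or low when it lay more than 2 robust SDs (a robust SD being the median absolute deviation, scaled to equal the SD of a normal distribution) from the median of all features. That limit was 0.78 before treatment, 0.88 at 30 min and 1.02 at 120 min.

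The 10 genes did not move as a block. Their median score was 0.11 before treatment, 0.16 at 30 min and 0.12 at 120 min, against -0.03, -0.03 and -0.04 over all measured ORF-named features. With each chromosome centred on its own median the medians of the 10 genes were 0.0036, 0.06 and 0.0073, so that their small offset from 0 was not kept in untreated cells and at 120 min. Their scores ranged from -1.12 to 0.41 in untreated cells, from -0.70 to 0.52 at 30 min and from -1.31 to 1.11 at 120 min. After 120 min RET1, RPC37 and RPC17 stood together at 0.98 to 1.11, RPC25 stood alone at -1.31, and the other 6 lay between -0.44 and 0.31.

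In untreated cells 0 of 10 features were called high, where 4.96% of all features were, and 2 of 10 were called low, RPC53 and RPC25, where 4.34% of all features were. After 30 min 0 were called high and 0 low, against 1.83% and 3.12% of all features. After 120 min RPC37 was called high, against 7.6% of all features, and RPC25 low, against 4.35%. The call of RPC37 was lost after quantile normalization, where its score was 0.80. With 10 genes, each of these counts differs from its background by at most 2 genes.

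**Figure D1:**
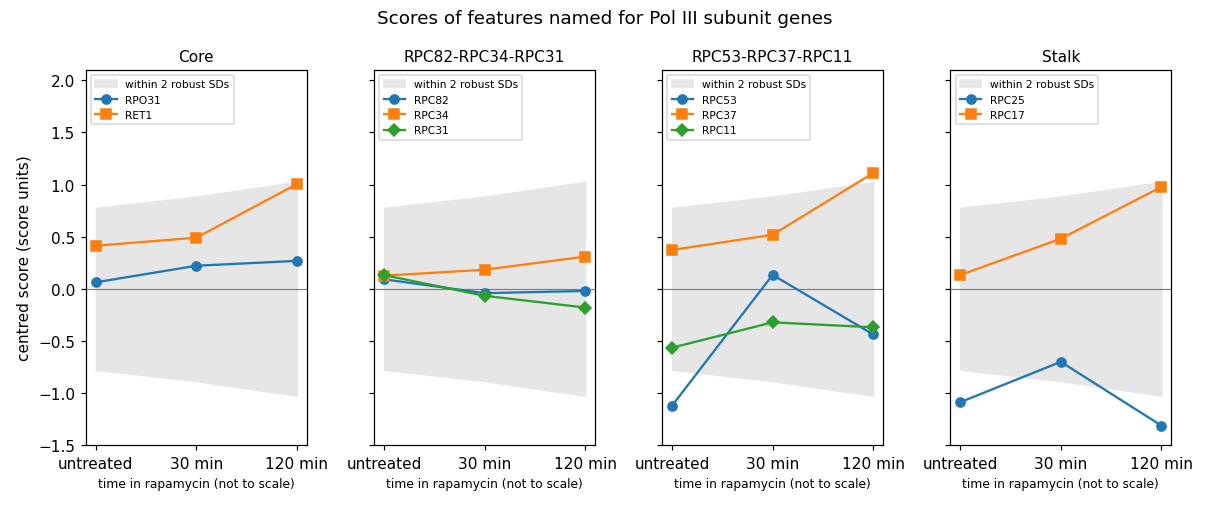
Centred score (score units, vertical axis) of the 10 features in untreated cells and after 30 and 120 min in rapamycin, in 4 panels by assembly. Each point is 1 deposited column, the authors' mean of 3 arrays, and the grey band spans 2 robust SDs of all features on either side of their median. RPC53 and RPC25 lie below the band in untreated cells, RPC37 lies above it and RPC25 below it at 120 min.

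The core genes both scored above the column median in all 3 conditions. For RPO31 in untreated cells this was not kept with each chromosome centred on its own median, where it had -0.10. RPO31, the gene of the largest subunit, had 0.06 before treatment, 0.22 at 30 min and 0.27 at 120 min. RET1, the gene of the other large subunit, had 0.41, 0.49 and 1.004. RPO31 was above 56.9% of all measured features in untreated cells, above 70.1% at 30 min and above 69.7% at 120 min. RET1 was above 85.9% in untreated cells and above 92.3% at 120 min. The value of RET1 at 120 min was 1.96 robust SDs above the median, just inside the limit for a call.

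The initiation trimer had the most even scores of the 4 assemblies in each condition, though not the most even changes from untreated cells. RPC82 had 0.09 before treatment, -0.04 at 30 min and -0.02 at 120 min. RPC34 had 0.13, 0.18 and 0.31, and RPC31 had 0.13, -0.07 and -0.18. None of these lay more than 1 robust SD from the column median in any condition. In untreated cells the 3 genes spanned 0.04 score units, and at 120 min they spanned 0.49.

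The termination and reinitiation genes were spread widely. RPC53 had -1.12 before treatment, 0.13 at 30 min and -0.44 at 120 min. RPC37 had 0.37, 0.52 and 1.11, and RPC11 had -0.56, -0.32 and -0.37. RPC53 and RPC37, whose products bind each other, were 1.49 score units apart in untreated cells, the range of this assembly. RPC37 had the highest score of the 10 genes at 30 min and at 120 min, above 93.1% of all features at the later time. RPC53 was above only 1.32% of features in untreated cells and above 62.7% at 30 min.

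The stalk genes stood further apart than the genes of any other assembly at 30 and 120 min, but not in untreated cells. RPC25 had -1.09 before treatment, -0.70 at 30 min and -1.31 at 120 min. RPC17 had 0.13, 0.48 and 0.98. RPC25 was thus below the median in all conditions, above 1.43% of all features in untreated cells and above 2.36% at 120 min. RPC17 went from near the median to above 92.0% of features, at 1.91 robust SDs and inside the limit for a call. The gap between them was 1.22 before treatment, 1.18 at 30 min and 2.29 at 120 min.

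The order of the 10 genes was similar in the 3 columns. Across the 10 features Pearson's r was 0.71 between untreated cells and 30 min, 0.84 between untreated cells and 120 min, and 0.94 between 30 and 120 min, with Spearman's rho of 0.72, 0.89 and 0.92. Over 5697 ORF-named features r was 0.49, 0.49 and 0.52. These correlations describe the features only, which share the array and its labelling, and the difference between 10 and 5697 features was not tested. With averaged columns it cannot be said which neighbours in the order differ beyond error.

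Changes were taken as differences of centred scores. From untreated cells to 30 min 8 of 10 features were higher, where 49.5% of all features were. The median change was 0.15, against 0.01 over ORF-named features. RPC53 was higher by 1.25, above 99.2% of all changes. The next were RPC25 at 0.39, RPC17 at 0.35 and RPC11 at 0.24, and the lowest were RPC82 at -0.13 and RPC31 at -0.20. RPC53 alone was called high, against 5.46% of all features, and 0 genes were called low, against 5.72%. RPC53 went from among the lowest scores of the untreated column to slightly above the median, and its distance from untreated cells was 0.68 at 120 min.

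From untreated cells to 120 min 7 of 10 features were higher, where 56.1% of all features were. The median change was 0.20, against 0.04 over ORF-named features and 0.72 over tRNA-named features. The highest changes were 0.84 at RPC17, 0.74 at RPC37, 0.68 at RPC53 and 0.59 at RET1. RPO31, RPC11 and RPC34 changed by 0.21, 0.20 and 0.18, and RPC82, RPC25 and RPC31 by -0.11, -0.22 and -0.31. No change passed the limits for a call, which were -0.81 and 0.95. The counts were 0 high, against 4.52% of all features, and 0 low, against 5.78%. With each column scaled to equal spread the change of RPC53, at 0.79, was called high, and after quantile normalization it was called at 0.91. All features called high or low were 630 and 646 under these scalings, in place of 647. RET1, RPC37 and RPC17 changed by 0.23, 0.35 and 0.56 after quantile normalization. The column at 120 min had the wider spread, where the robust SD was 0.51 and that of the untreated column 0.39. Both changes share the untreated column.

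**Figure D2:**
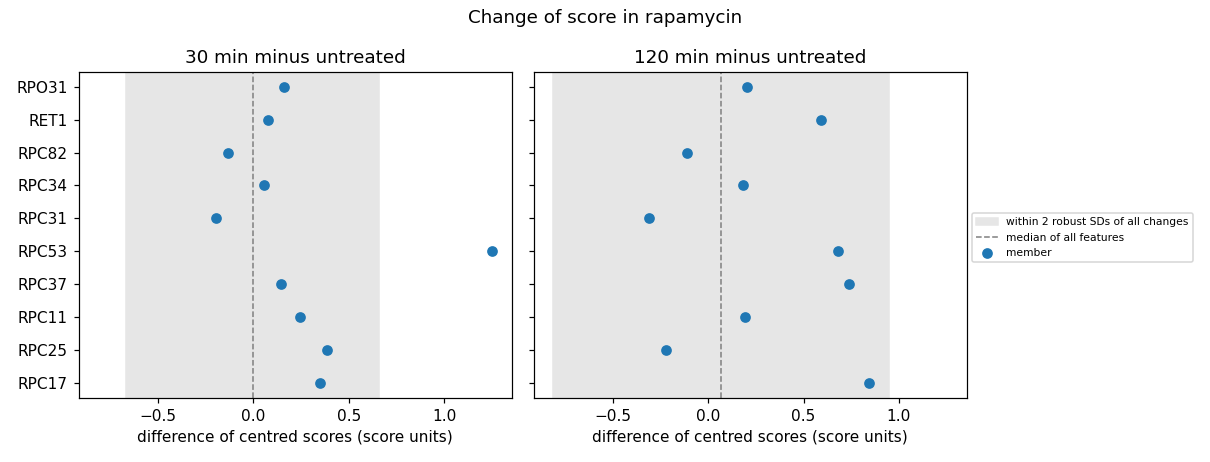
Change of the centred score (score units, horizontal axis) of each gene from untreated cells to 30 min (left) and to 120 min (right). Points are differences of single deposited columns, the grey band spans 2 robust SDs of the changes of all features and the dashed line is their median. RPC53 at 30 min, at 1.25, is the only point outside the band.

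Between 30 and 120 min the genes changed in both directions. The SD of their changes was 0.42, against 0.56 over all features and 0.53 over ORF-named features. The robust SD was 0.45, against 0.43 over all features and 0.40 over ORF-named features. Whether the genes spread less or more than the background thus depended on the measure. RPC37, RET1 and RPC17 were higher by 0.59, 0.51 and 0.50, while RPC53 and RPC25 were lower, with -0.57 and -0.61. The other 5 changed by -0.11 to 0.13. In all, 6 of 10 were higher, against 56.9% of all features, with 0 called high and 0 called low, against 5.86% and 5.94%. These differences use the same 30 min column as the changes above, with the opposite sign. Quantile normalization brought RPC37, RET1 and RPC17 to 0.20, 0.18 and 0.18 and RPC25 to -0.32, with the directions kept.

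Neighbouring genes were looked up because a feature beside an ORF may cover a stretch shared with another gene. The RefSeq gene table of assembly R64 gave the order of the genes. Since no label names the genome build of the arrays, coordinates are left out. The identifier does not say on which side of the ORF the feature lies. ORF-named features with a Pol III gene next to them only at higher coordinates had a median of 1.22 at 120 min (216 features), and those with a Pol III gene only at lower coordinates had 0.06 (201 features), close to -0.07 for features with none (4989 features). If the features lie at the higher-coordinate side, 8 of the 10 would lie upstream of their gene's start, because these genes are on the C strand, and those of RPC53 and RPC37 would lie downstream of the end. Of the 8, 5 would share the stretch with a divergent protein gene, 2 with a protein gene on the same strand and 1, RPC17, with a divergent tRNA gene.

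RPC17 is the only 1 of the 10 genes that adjoins a Pol III gene, the tRNA gene YNCJ0018W on the higher-coordinate side. Its score of 0.98 at 120 min was above 98.5% of ORF-named features that adjoin no Pol III gene and above 39.4% of those with a Pol III gene next at higher coordinates only. The change of 0.84 was above 68.5% of the latter class. Its untreated score of 0.13 was above 24.5% of that class. Without RPC17 the median of the list at 120 min was -0.02 in place of 0.12.

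RET1 and RPC37 have protein genes on both sides. Among the ORF-named features that adjoin no Pol III gene, the score of RPC37 at 120 min was above 99.2% and that of RET1 above 98.7%. Of that class 1.26% were called high at 120 min. RET1 lies between NOC2 and PTP2, which had -0.24 and -0.05 at 120 min. RPC37 lies between DBP7 and GCN3, which had -0.18 and -1.45. GCN3, not RPC37, is the gene followed by a tRNA gene on the higher-coordinate side. At 120 min the scores of 1.004 at RET1 and 1.11 at RPC37 were not shared by the features of the adjacent ORFs. RET1 was not called high, and the call of RPC37 was not kept after quantile normalization. PTP2 had 0.45 in untreated cells and 0.46 at 30 min, close to RET1 with 0.41 and 0.49, while NOC2 had -0.37 and -0.35.

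RPC25, the lowest of the 10 at 120 min, lies between RPT1 and LTV1. The RPT1 feature had -0.37 before treatment, -0.39 at 30 min and -0.41 at 120 min. The LTV1 feature had -0.69, -0.47 and -2.00. All 3 adjacent features were thus below the median in all conditions. RPC53 lies next to ATG9, whose feature had -0.31, -0.48 and -0.55, and did not share the high change of RPC53 at 30 min, with -0.17. Features beside RPO31, those of TRS33 and RPT5, had 0.27 and 0.31 at 120 min, against 0.27 at RPO31, but 0.29 and -0.09 in untreated cells, against 0.06. Beside RPC34, ATO2 and SWM2 had 0.33 and 0.36 at 120 min, against 0.31, while ATO2 had 0.82 at 30 min, against 0.18 at RPC34. Beside RPC82, SKI3 and QCR2 had 0.35 and 0.94 at 120 min, against -0.02 at RPC82. Closeness to the neighbours thus differed between genes and between columns. Pearson's r over 4318 pairs of adjacent ORF-named features was 0.13 before treatment, 0.20 at 30 min and 0.07 at 120 min. These values take in the whole array and only describe features on the same arrays.

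**Figure D3:**
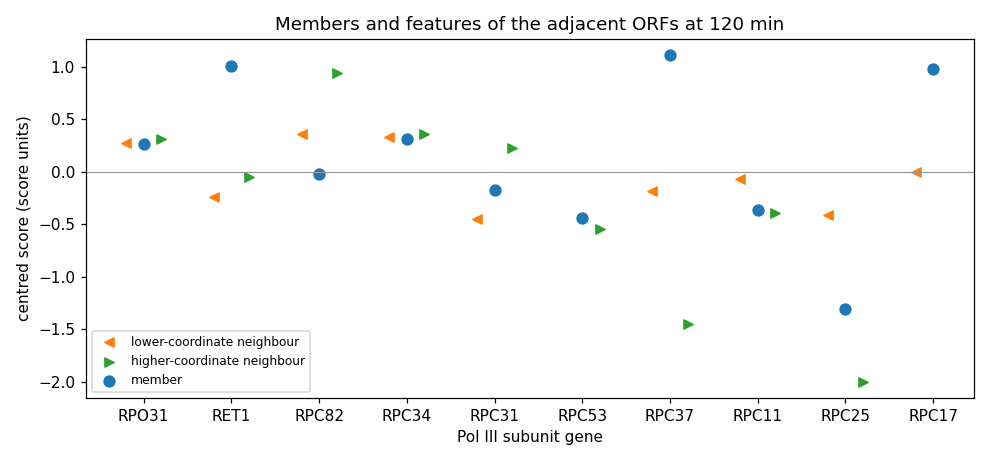
Centred score at 120 min in rapamycin (score units, vertical axis) of each of the 10 features (circles) and of the features of the next genes at lower and higher coordinates (triangles), where these had a value. RET1, RPC37 and RPC17 lie above their measured neighbours, RPC25 lies between RPT1 and LTV1, and RPO31 and RPC34 lie close to both neighbours.

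The remaining genes of the Pol III apparatus and the subunits of the other polymerases were described from fixed lists, 31 genes of which 29 had a feature here. The 7 subunits that Pol III shares with other polymerases had medians of -0.21, -0.20 and 0.01 in the 3 conditions. Of their features 0 were called high or low in any condition. Over all features 4.96%, 1.83% and 7.6% were called high, and 4.34%, 3.12% and 4.35% low. The changes of the shared subunits at 120 min ran from -0.22 at RPB10 to 0.53 at RPB5. The 9 features of TFIIIA, TFIIIB and TFIIIC, the factors that bring Pol III to its genes, had medians of 0.12, 0.23 and -0.15. Of these 9 genes 7 were lower at 120 min than in untreated cells, where 2754 of 6278 measured features of the array were. Of the 10 Pol III subunit genes 7 were higher, where 56.1% of all features were. The changes of the 9 TFIII genes ran from -0.82 at TFC4, a TFIIIC subunit, to 0.40 at TFC6, another TFIIIC subunit. TFC4 was called low, just past the limit of -0.81, where 5.78% of all features were called low. The difference between the lists was not tested.

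The 6 measured Pol I subunit genes had medians of 0.23, 0.31 and 0.44. RPA135, which encodes a large Pol I subunit and has a Pol III gene next at higher coordinates, changed by 1.13 to reach 1.81 at 120 min, and was called high. RPA12 had the lowest change of this list, -0.57. The 7 Pol II subunit genes had medians of 0.02, -0.16 and -0.20. RPB11 had the highest change, 0.64, and RPB2 the lowest, -1.03, which was called low. RPC17 and RPA135 were the only measured genes of the 5 lists with a Pol III gene next to them. RPC17 had the highest change of its list at 120 min as centred, but RPC53 had a higher one with equal spread (0.79 against 0.61) and after quantile normalization (0.91 against 0.56).

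**Figure D4:**
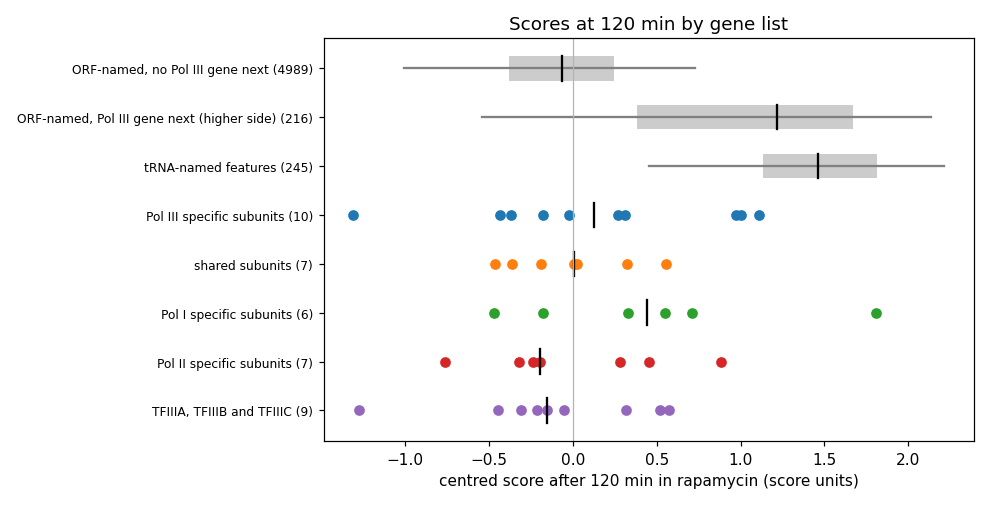
Centred score at 120 min in rapamycin (score units, horizontal axis) for 3 classes of features (grey boxes from the lower to the upper quartile, lines from the 5th to the 95th percentile) and for the genes of 5 lists (points, 1 for each gene). Black bars are medians and numbers in brackets count features. The Pol III subunit genes spread from -1.31 to 1.11 around a median of 0.12, below the tRNA-named median of 1.46.

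The ORF-named features whose scores were most like those of RPC17, the gene with the largest change at 120 min as centred (RPC53 with equal spread or after quantile normalization), were found by the Euclidean distance over the 3 centred scores among 5687 other features. They were TRX2, a thioredoxin gene, at 0.06, PPZ2, a protein phosphatase gene, at 0.07, and PIB2 at 0.10. After 120 min these had 1.04, 0.93 and 0.96, against 0.98 at RPC17. None of the 3 has a Pol III gene next to it, and among matched ORF-named features 232 of 5525 have such a gene next at higher coordinates. The likeness rests on 3 values for each feature.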

How the data were processed

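Per the labels, the authors hybridized DNA of Maf1-immunodepleted chromatin against input DNA, averaged 3 replicates and normalized to a gene list whose members are not stated in the labels. The deposited values were taken as a score, with unknown log base and direction. Background correction and spot filters are not stated in the labels. Scores were centred by subtracting the column median (deposited medians -0.0088, 0.0527 and 0.0168, with 6284, 6282 and 6279 values). Changes are differences of centred scores. A call means more than 2 robust SDs from the median of all features and is not a test. The procedure was run on simulated columns, permuted independently, with a known shift larger than any change of the 10 genes. It was thus not checked for changes of their size. The members and lists were chosen with earlier results of these data known, and so nothing here is independent support for them. Named genes are the 10 members, the genes next to them, the lowest and highest change at 120 min of each list, the 3 features most like the most changed member, and list genes singled out after their values were seen. RefSeq R64 matched 5525 of 5806 ORF-named features and left 281 unmatched. A search for promoter motifs was planned, but promoter sequences were not used here. Columns without a sample numbered 0. Python 3.11.15, pandas 2.3.3 and numpy 2.4.6 were used.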

Additional observations from a re-analysis of the deposited data

Results flagged for a closer look

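RPC25, the gene of a stalk subunit, changed in opposite directions at the 2 times of treatment: its score was higher by 0.39 at 30 min and lower at 120 min, with -0.22, both against the same untreated column. The difference between the times was not tested, and each value rests on single averaged columns. The value at 120 min was 0.09 with each column scaled to equal spread and 0.21 after quantile normalization, so the opposite direction was not kept under these scalings.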

How the results depend on the processing

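Medians of the 10 genes were recomputed under no centring, equal spread, quantile normalization, centring by chromosome, centring on ORF-named features, averaging the features of an ORF and leaving out neighbours of Pol III genes. Averaging could not move these medians, because each of the 10 genes has 1 feature. Without replicates no error was at hand to judge the moves of the medians. The median change from untreated cells stayed above 0 under each of the other settings. It ran from 0.11 to 0.21 at 30 min and from 0.20 to 0.23 at 120 min. With each chromosome centred separately the untreated median was 0.0036 in place of 0.11. The median score at 120 min was -0.02 without RPC17, the only neighbour of a Pol III gene, in place of 0.12, and the median change between 30 and 120 min was -0.0023 without centring in place of 0.0337. Of 60 values of single genes (levels and changes) 8 changed sign under at least 1 of 5 scalings, among them the change of RPC25 at 120 min. The number of the 10 genes called for the change at 120 min became 1 (RPC53), in place of 0, under equal spread and likewise 1 (RPC53) under quantile normalization. All features called for this change were then 630 and 646, in place of 647 of 6278. After quantile normalization the number of the 10 genes called at 120 min was 1, RPC25, in place of 2. All features called at 120 min were then 613 in place of 750. At 30 min all features called were 613 in place of 311, and the cause was not tested. With a limit of 3 robust SDs, which by its construction gives fewer calls, 0 of the 10 genes were called in untreated cells and 0 at 120 min. All features called were then 155, 51 and 371 in the 3 conditions, 209 and 196 for the changes at 30 and 120 min, and 236 between the times. RPC53 was still called for its change at 30 min. No paired analysis was possible because each condition has 1 averaged column. Signal over background could not be judged from averaged scores.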

Other observations

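Features next to the Pol III subunit genes on chromosome XI included some of the lowest scores met here, singled out after their values were seen. LTV1, a gene of ribosome assembly beside RPC25, changed by -1.31 from untreated cells to 120 min. GCN3, the gene of a translation initiation factor subunit beside RPC37, was higher by 0.94 at 30 min and changed by -1.70 between 30 and 120 min, although features with a Pol III gene next at higher coordinates only, its own class, changed by a median of 0.72 between these times. QCR2, a gene of the respiratory chain beside RPC82, was higher by 0.77 at 120 min, while RPC82 changed by -0.11. RPB2, a large Pol II subunit gene, had 0.71 before treatment, -0.62 at 30 min and -0.32 at 120 min.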
